A study of Danio rerio with 15 samples.

Results

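Genes that drive, order or restrain the cell division cycle were followed in zebrafish Müller glia, the radial glial cells of the retina, during the first hours after a retinal lesion. The 8 genes were ccnd1, skp2, ccnf, ccna2, cdc25b, ccnb1, cdkn1bb and ccng2, taken by their current or former symbols from the authors' deposited table of changed genes. They number 8 of the 2331 genes that this table names with 1 symbol, and they are read by 12 of the 15502 probe sets tested. Of these 12 probe sets, 8 carried the current symbol and 4 a former one (cdkn1b for cdkn1bb and cdc25 for cdc25b). All 3164 probe sets in that table reached a 2-fold change at some time. A change over the course is thus a condition of being listed and not a result about these genes.

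The samples were adult fish, 5 to 6 months old, of the Tg(gfap:GFP)mi2002 line, in which the promoter of the glial gene gfap drives green fluorescent protein. Fluorescent cells were sorted from dissociated retinas of fish at 8, 16, 24 and 36 hours post-lesion (hpl) and from fish without light treatment, called 0 hpl, which carried the same transgene. Each of the 5 times had 3 biological replicates on Affymetrix arrays, 15 arrays in all. From each sample 20 ng of total RNA was amplified linearly before labelling. How many fish went into a sample is not stated in the labels.

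A cell enters division when D-type cyclins, in response to outside signals, activate their kinases and release the E2F factors that switch on genes for DNA synthesis. Cyclin A then acts in S phase and G2, and cyclin B with Cdk1 in mitosis, once Cdc25 phosphatases have removed the inhibitory phosphates from Cdk1. Inhibitors such as p27 hold the kinases back in resting cells, and ubiquitin ligases of the SCF type, with Skp2 or cyclin F as the subunit that picks the target, remove inhibitors and other regulators at set points. In the adult zebrafish retina, Müller glia are normally quiescent and re-enter the cycle after photoreceptors are lost, to give rise to neuronal progenitors.

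Values below are log2 expression values on the scale of the deposited normalisation, and a probe set was called changed at a Benjamini-Hochberg adjusted p under 0.05 in limma, adjusted over all 15502 probe sets. The medians of the 15 arrays ran from 4.41 to 4.67, and arrays of the same time correlated at 0.973 to 0.991. The 18 spiked hybridisation control probe sets stood at -0.29, -0.38, -0.31 and -0.51 (log2) at 8, 16, 24 and 36 hpl against 0 hpl. Scaling the arrays on these controls moved the median change of all probe sets from -0.10, -0.14, -0.11 and -0.14 to 0.19, 0.25, 0.21 and 0.38. For the 8 genes, calls that this scaling ended are named with the results. For the other genes such calls are given only in part, and a call without mention of this scaling may depend on it. The Müller glia genes glula and rlbp1a were at 11.75 ± 0.05 and 11.33 ± 0.07 (SD, n = 3) at 0 hpl, so that the defining markers of the labelled cell type were present. The sorted cells also held photoreceptor transcripts, with rho at 9.79 ± 0.32 (SD, n = 3) and gnat2 at 8.46 ± 0.43 (SD, n = 3) at 0 hpl.

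The 8 genes moved at different times. The D-type cyclin gene ccnd1 rose by 16 hpl and again by 24 hpl, with no further change called by 36 hpl. The genes ccnf, ccna2, cdc25b and ccnb1, which act from S phase to mitosis, rose between 24 and 36 hpl and were not called higher than in unlesioned fish at 24 hpl. Before that they differed, as ccna2, cdc25b and ccnb1 were lower at 8 and 16 hpl (cdc25b at 16 hpl by 1 of its 2 probe sets) by calls that the hybridisation-control scaling ended, and ccnf was higher at 16 hpl by a call that 1 array could end. The ubiquitin ligase gene skp2 was called higher at 24 hpl by a small margin and rose further by 36 hpl. Its 24 hpl difference (0.73 ± 0.22) was close to that of ccnf (0.74 ± 0.30), which was not called. An order between skp2 and ccnf is thus not shown. The brakes cdkn1bb and ccng2 were called lower at all 4 times from 8 hpl on, in part by calls that depended on the scale. With the hybridisation-control scaling both cdkn1bb probe sets lost their calls at 8 and 16 hpl, and the second also at 36 hpl. The brighter ccng2 probe set kept its calls with that scaling, and the other kept only that at 16 hpl. In sorted bulk samples, more dividing cells and more RNA per dividing cell cannot be told apart, nor can fewer cells and less RNA per cell.

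**Figure D1:**
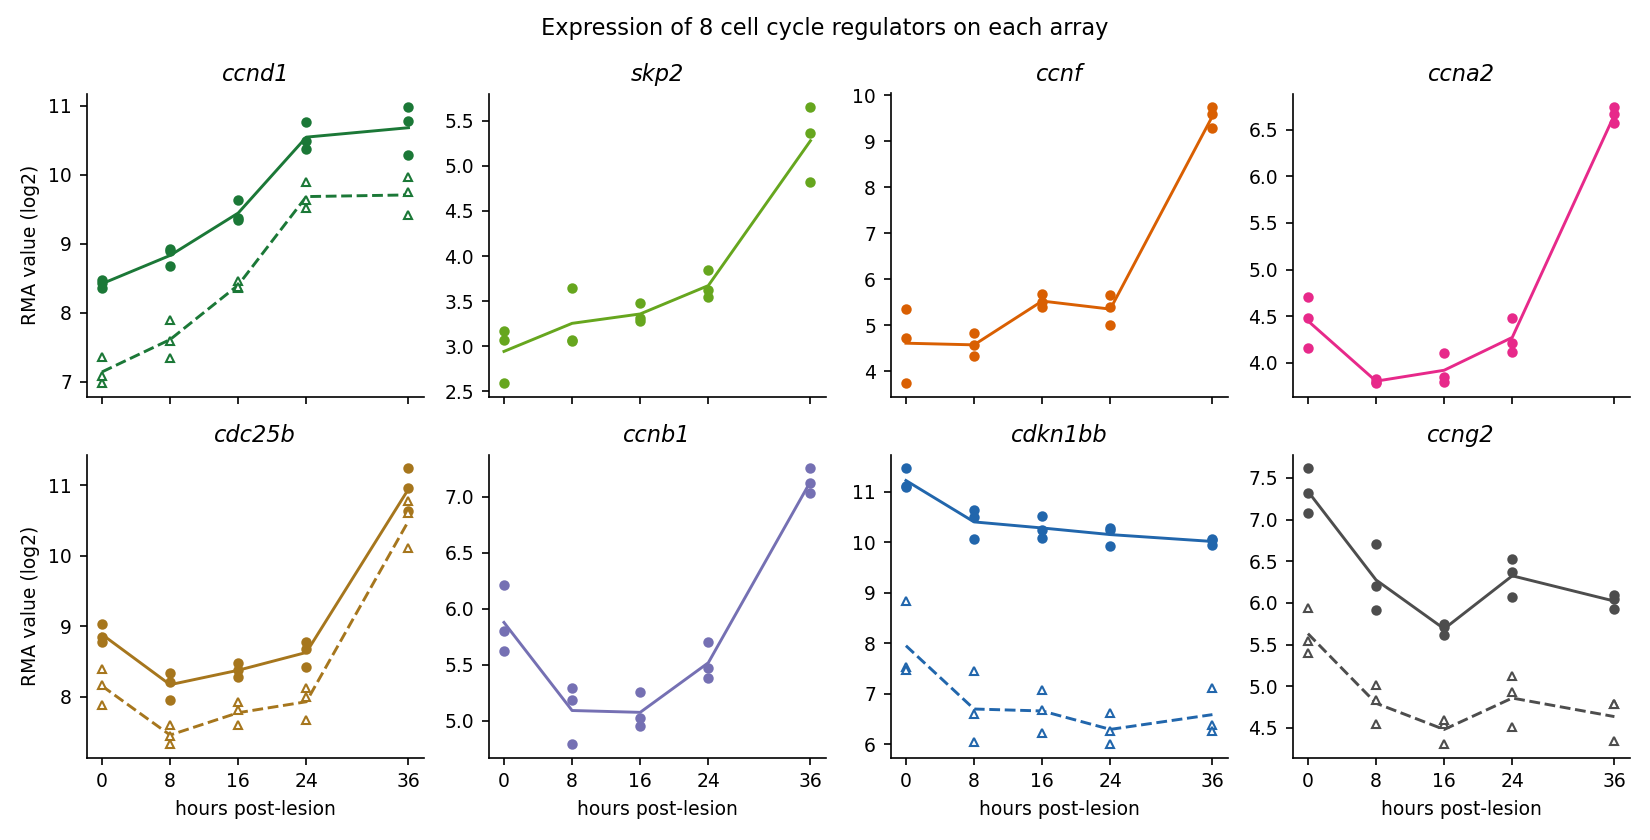
Log2 expression value (vertical axis, each panel on its own scale) against hours post-lesion for the 8 genes, with a point for each of the 15 arrays and a line through the means of 3. Filled circles with a solid line are the probe set with the highest mean, and open triangles with a dashed line are the other probe set where a gene has 2. The ccnd1 panel climbs in steps to 24 hpl, the panels of ccnf, ccna2, cdc25b and ccnb1 turn up at 36 hpl, and those of cdkn1bb and ccng2 drop by 8 hpl.

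Cyclin D1, the product of ccnd1, binds Cdk4 and Cdk6 and carries cells through G1. Its brighter probe set read 8.36, 8.48 and 8.43 on the 3 arrays at 0 hpl, 8.89, 8.93 and 8.68 at 8 hpl, 9.34, 9.63 and 9.37 at 16 hpl, 10.49, 10.38 and 10.77 at 24 hpl, and 10.78, 10.98 and 10.29 at 36 hpl. The arrays of 0, 8 and 16 hpl formed separate bands, each above the one before and all below every array of 24 and 36 hpl, while those last groups overlapped. The second probe set ran in the same order, from 6.99 to 7.36 at 0 hpl, 7.35 to 7.90 at 8 hpl, 8.36 to 8.47 at 16 hpl, 9.51 to 9.90 at 24 hpl and 9.41 to 9.96 at 36 hpl.

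Against 0 hpl, the brighter ccnd1 probe set was higher by 1.02 ± 0.17 (log2 ± SE, adjusted p = 0.000226, 2.03-fold) at 16 hpl, by 2.12 ± 0.17 (adjusted p = 1.71e-07, 4.36-fold) at 24 hpl and by 2.26 ± 0.17 (adjusted p = 6.75e-08, 4.79-fold) at 36 hpl. At 8 hpl the difference of 0.41 ± 0.17 did not pass the test (adjusted p = 0.0852), and neither did the 0.47 ± 0.17 of the second probe set (adjusted p = 0.0585). Both were called with the hybridisation-control scaling (0.70, adjusted p = 0.0372, and 0.76, adjusted p = 0.0229), with array weights, with median centring and without replicate 3 of 36 hpl, and the second also without replicate 2 of 0 hpl or replicate 3 of 8 hpl. The second probe set gave 1.26, 2.54 and 2.56 at the 3 later times, all called. Of the whole 36 hpl change on the log2 scale, 45.3% was present at 16 hpl and 94.0% at 24 hpl for the brighter probe set, and 49.1% and 99.1% for the other.

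By interval, ccnd1 gained 0.61 ± 0.17 from 8 to 16 hpl (adjusted p = 0.0346) and 1.1 ± 0.17 from 16 to 24 hpl (adjusted p = 0.00649). The second probe set gained 0.79 ± 0.17 (adjusted p = 0.0105) and 1.28 ± 0.17 (adjusted p = 0.00286). Between 24 and 36 hpl neither probe set was called, with changes of 0.14 (95% interval -0.22 to 0.50) and 0.02 (95% interval -0.35 to 0.40). The brighter probe set's gain from 8 to 16 hpl lost its call when any 1 of the 6 arrays of those times was left out and under each of the 3 other normalisations, with 0.52 to 0.70 and an adjusted p of up to 0.140 over the 23 alternatives that kept the threshold. Its gain from 16 to 24 hpl lost its call without replicate 1 of 16 hpl or with the hybridisation-control scaling, with 0.99 to 1.19 and an adjusted p of up to 0.0783 over the alternatives. Both gains of the second probe set kept their calls in these 23 alternatives. From 8 to 16 hpl these 2 were the only ones of the 12 cell cycle probe sets called higher, against 5.48% of all probe sets and 20.1% of those in the authors' table. The gain of ccnf in that interval was larger, at 0.95 ± 0.30, but was not called (adjusted p = 0.0584). It was called in 5 of the 23 alternatives. At an unadjusted p under 0.05 in limma 3 of the 12 were higher, with ccnf added, and 1 was lower, the brighter ccng2 probe set. From 16 to 24 hpl the ccnd1 probe sets were again the 2 called of the 12. In that interval 0.29% of all probe sets and 1.17% of the authors' table were called higher. At an unadjusted p under 0.05 in limma the interval from 16 to 24 hpl gave 5 of the 12, adding ccna2, ccnb1 and ccng2.

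Skp2 is the target-binding subunit of an SCF ubiquitin ligase that in mammals marks p27 for destruction. Its probe set read 2.59, 3.07 and 3.17 at 0 hpl, 3.05, 3.07 and 3.64 at 8 hpl, 3.31, 3.28 and 3.48 at 16 hpl, 3.62, 3.55 and 3.85 at 24 hpl, and 5.65, 5.36 and 4.82 at 36 hpl. All arrays of 16, 24 and 36 hpl lay above the 3 unlesioned arrays, and the 3 arrays of 36 hpl lay far above all others. At 16 hpl the difference of 0.41 ± 0.22 did not pass the test (adjusted p = 0.134), but it was called with quantile normalisation applied again (0.61, adjusted p = 0.0499) and with the hybridisation-control scaling (0.80, adjusted p = 0.00947). At 24 hpl the gene was higher by 0.73 ± 0.22 (adjusted p = 0.0170), a call that was lost without replicate 1 of 0 hpl (0.55, adjusted p = 0.0898) or without replicate 3 of 24 hpl (0.64, adjusted p = 0.0754). The rise from 24 to 36 hpl was 1.60 ± 0.22 (adjusted p = 0.000247), which brought the total to 2.33 ± 0.22 (adjusted p = 5.68e-07), and 31.2% of that total was present at 24 hpl. The unlesioned mean lies below 4.63, the median of all probe set means at 0 hpl, and was not shown to be above background, so that no fold is given. The same holds for ccnf and ccna2. The log2 changes of these 3 genes against 0 hpl are differences on the deposited scale and may understate a rise from such a level.

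Cyclin F, the product of ccnf, lends its name to the F-box family and, in mammals, serves an SCF ligase in S phase and G2. Its probe set read 5.35, 4.72 and 3.74 at 0 hpl, 4.83, 4.33 and 4.56 at 8 hpl, 5.40, 5.67 and 5.50 at 16 hpl, 5.40, 5.00 and 5.65 at 24 hpl, and 9.60, 9.74 and 9.29 at 36 hpl. The 3 arrays of 36 hpl stood well apart from the other 12, among which the unlesioned arrays spread widest. From 24 to 36 hpl ccnf rose by 4.19 ± 0.30 (adjusted p = 1.77e-07) and from 0 to 36 hpl by 4.94 ± 0.30 (adjusted p = 7.63e-09). At 16 hpl a smaller rise of 0.92 ± 0.30 was called (adjusted p = 0.0224) and at 24 hpl a difference of 0.74 ± 0.30 was not (adjusted p = 0.0703). The 24 hpl difference was called with the hybridisation-control scaling (1.05, adjusted p = 0.0150) and without replicate 1 of 0 hpl (1.11, adjusted p = 0.00519), the highest unlesioned array. The 16 hpl call was lost without replicate 3 of 0 hpl (0.48, adjusted p = 0.111), the lowest unlesioned array, and without replicate 2 (0.84, adjusted p = 0.0707) or replicate 3 (0.93, adjusted p = 0.0513) of 16 hpl, and when only the compared groups were fitted (0.92, adjusted p = 0.0598).

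Cyclin A2, from ccna2, activates Cdk2 in S phase and Cdk1 in G2. Its probe set read 4.48, 4.71 and 4.16 at 0 hpl, 3.80, 3.79 and 3.83 at 8 hpl, 4.11, 3.80 and 3.85 at 16 hpl, 4.48, 4.12 and 4.22 at 24 hpl, and 6.74, 6.57 and 6.67 at 36 hpl. All arrays of 8 and 16 hpl lay below the 3 unlesioned arrays, those of 24 hpl overlapped them, and those of 36 hpl lay above all others. The gene fell by 0.65 ± 0.15 at 8 hpl (adjusted p = 0.00614) and was still lower at 16 hpl (-0.53 ± 0.15, adjusted p = 0.0117). It stood at -0.18 ± 0.15 at 24 hpl (adjusted p = 0.407), which turned to 0.13 with the hybridisation-control scaling, and it was higher by 2.21 ± 0.15 at 36 hpl (adjusted p = 2.89e-08). Between 24 and 36 hpl it rose by 2.39 ± 0.15 (adjusted p = 7.35e-08). The 16 hpl call was lost without replicate 2 of 0 hpl (-0.40, adjusted p = 0.0562) or replicate 2 of 16 hpl (-0.47, adjusted p = 0.0507), and also with quantile normalisation applied again (-0.35) or with median centring (-0.41).

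Cdc25b removes the inhibitory phosphates from Cdk1 and so opens the way to mitosis. The brighter probe set read 9.03, 8.84 and 8.78 at 0 hpl, 8.34, 7.95 and 8.21 at 8 hpl, 8.27, 8.47 and 8.37 at 16 hpl, 8.78, 8.43 and 8.68 at 24 hpl, and 11.24, 10.97 and 10.63 at 36 hpl. As for ccna2, the arrays of 8 and 16 hpl lay below all unlesioned arrays and those of 36 hpl above all others, and the 24 hpl arrays came up to just under the lowest unlesioned one. The second probe set went from 7.88 to 8.40 at 0 hpl down to 7.33 to 7.59 at 8 hpl and up to 10.11 to 10.77 at 36 hpl.

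The brighter cdc25b probe set fell by 0.71 ± 0.16 at 8 hpl (adjusted p = 0.00532) and the other by 0.70 ± 0.19 (adjusted p = 0.0136). At 16 hpl the first was lower by a called amount (-0.51 ± 0.16, adjusted p = 0.0218) and the second was not called (-0.38 ± 0.19, adjusted p = 0.116), the latter turning to 0.0043 with the hybridisation-control scaling and called with quantile normalisation applied again (-0.62, adjusted p = 0.0158). The 24 hpl differences of -0.26 and -0.22 were not called and turned to 0.0559 and 0.0873 with that scaling. At 36 hpl the gene was higher by 2.06 ± 0.16 (adjusted p = 1.11e-07, 4.18-fold) and 2.34 ± 0.19 (adjusted p = 1.22e-07, 5.07-fold), after rises of 2.32 and 2.57 from 24 hpl. The 8 hpl call of the second probe set was lost without replicate 1 of 0 hpl (-0.57, adjusted p = 0.0621) and with median centring (-0.57, adjusted p = 0.0548). The 16 hpl call of the first was lost without replicate 1 of 0 hpl (-0.44, adjusted p = 0.0823), replicate 1 of 16 hpl (-0.46, adjusted p = 0.0734) or replicate 3 of 16 hpl (-0.51, adjusted p = 0.0540), and with median centring (-0.39).

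Cyclin B1 is the partner of Cdk1 at entry into mitosis. The ccnb1 probe set, of a type whose probes match more than 1 transcript, read 6.21, 5.80 and 5.62 at 0 hpl, 4.79, 5.30 and 5.18 at 8 hpl, 4.95, 5.02 and 5.25 at 16 hpl, 5.47, 5.70 and 5.38 at 24 hpl, and 7.13, 7.25 and 7.03 at 36 hpl. The dip at 8 and 16 hpl lay wholly below the unlesioned arrays, and the 36 hpl arrays lay wholly above them. The gene fell by 0.79 ± 0.17 at 8 hpl (adjusted p = 0.00409) and was lower by a similar amount at 16 hpl (-0.80 ± 0.17, adjusted p = 0.00183). It was not called at 24 hpl (-0.36 ± 0.17, adjusted p = 0.132) and was higher by 1.26 ± 0.17 at 36 hpl (adjusted p = 3.07e-05, 2.39-fold), after a rise of 1.62 ± 0.17 from 24 hpl (adjusted p = 1.99e-05).

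Over the last interval, from 24 to 36 hpl, 6 of the 12 probe sets were called higher, those of skp2, ccnf, ccna2, cdc25b and ccnb1, against 3.11% of all probe sets and 9.64% of the authors' table. None of the 12 was called lower in limma, and 0 were at an unadjusted p under 0.05. The count was 6 in every alternative run. The early dips depended on the scale. With the hybridisation-control scaling, the falls of ccna2, cdc25b and ccnb1 at 8 hpl became -0.35, -0.42 and -0.40, and -0.49. At 16 hpl those of ccna2, the brighter cdc25b probe set and ccnb1 became -0.15, -0.12 and -0.42 with it, and none of these values was called. At 36 hpl, replicate 3 was the lowest array for 7 of the 8 probe sets that were higher than at 0 hpl, ccna2 being the exception.

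**Figure D2:**
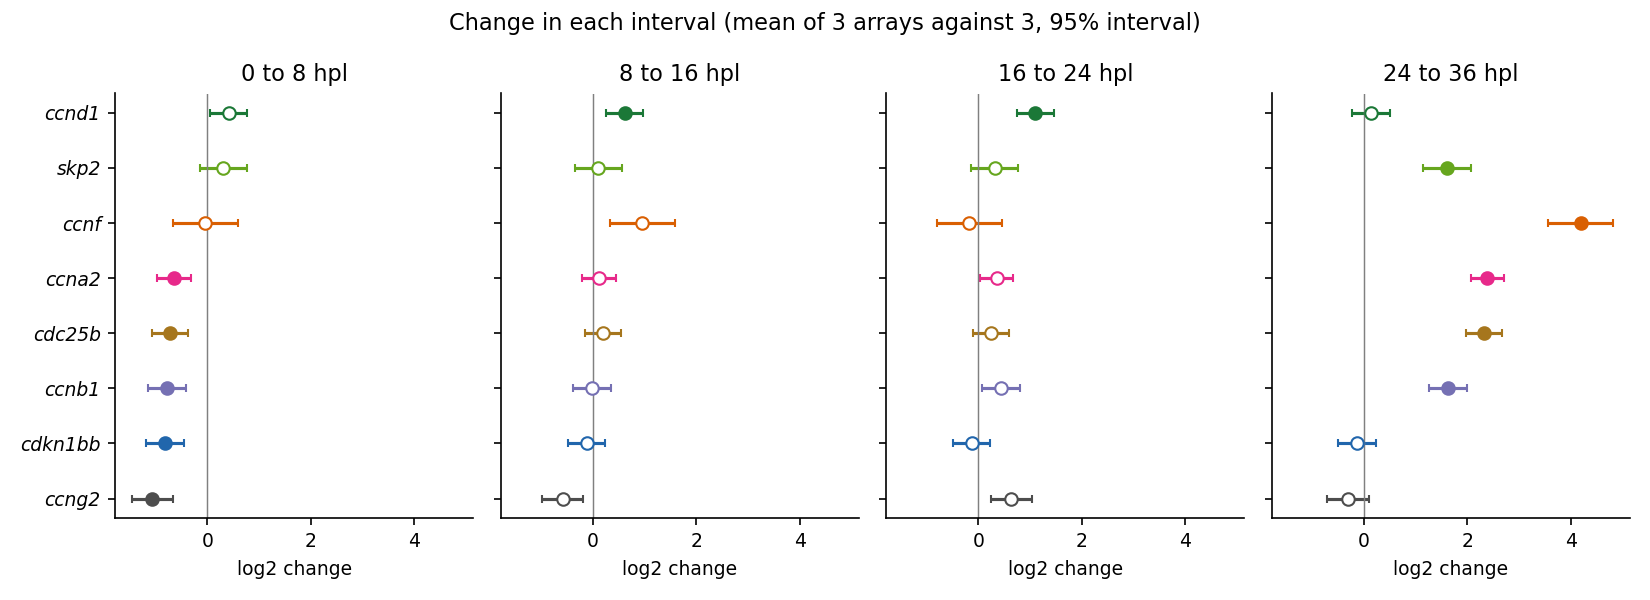
Log2 change in each of the 4 intervals (horizontal axis) for the probe set with the highest mean of each gene, as the mean of 3 arrays against the mean of 3 with its 95% interval from limma. Filled points passed an adjusted p of 0.05 and open points did not. The filled points to the right of 0 are ccnd1 in the middle intervals and skp2, ccnf, ccna2, cdc25b and ccnb1 from 24 to 36 hpl, and those to the left are all in the first interval, where the values of ccna2, cdc25b, ccnb1 and cdkn1bb are not called when the arrays are scaled on the hybridisation controls.

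The gene cdkn1bb encodes a p27-type inhibitor of cyclin-dependent kinases, and in the authors' table both of its probe sets also carry terms for a tyrosine-tRNA ligase, so that the transcript they read was not settled here. The brighter one read 11.46, 11.10 and 11.10 at 0 hpl, 10.50, 10.63 and 10.07 at 8 hpl, 10.24, 10.52 and 10.09 at 16 hpl, 10.28, 9.93 and 10.24 at 24 hpl, and 9.95, 10.06 and 10.04 at 36 hpl. All 12 arrays of lesioned fish lay below the 3 unlesioned ones. From 8 hpl on, each group overlapped the next. The 36 hpl arrays (highest 10.057) lay just under all those of 8 hpl (lowest 10.067) and 16 hpl (lowest 10.087). It fell by 0.82 ± 0.17 at 8 hpl (adjusted p = 0.00286), 67.9% of the fall of 1.21 ± 0.17 reached at 36 hpl (adjusted p = 4.11e-05, 2.31-fold), and no later interval was called. With the hybridisation-control scaling its changes at 8 and 16 hpl became -0.52 and -0.55 and were not called.

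The second cdkn1bb probe set read 7.54, 7.48 and 8.84 at 0 hpl, and its later arrays lay between 6.01 and 7.44. It was called lower at all 4 times, by -1.25, -1.29, -1.65 and -1.36 (± 0.38). Replicate 3 was the highest unlesioned array. Without it the changes at 8, 16 and 36 hpl were -0.81, -0.85 and -0.92, none called, with adjusted p of 0.121, 0.0756 and 0.0501. The 8 hpl call was also lost without replicate 2 (-1.20, adjusted p = 0.0625) or replicate 3 (-0.93, adjusted p = 0.108) of 8 hpl or when only the compared groups were fitted (-1.25, adjusted p = 0.0804), and the 16 hpl call without replicate 3 of 16 hpl (-1.07, adjusted p = 0.0671). With the hybridisation-control scaling the values at 8, 16 and 36 hpl were -0.96, -0.91 and -0.85, not called. The brighter probe set did not show that array apart, and the 2 probe sets' deviations from their group means correlated at 0.03 over the 15 arrays, compared with 0.15 for the ccng2 pair, 0.70 for the ccnd1 pair and 0.89 for the cdc25b pair.

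Cyclin G2, from ccng2, is an unconventional cyclin that in mammals is high in resting cells and slows the cycle when forced on. Its brighter probe set read 7.61, 7.32 and 7.08 at 0 hpl, 5.92, 6.20 and 6.70 at 8 hpl, 5.74, 5.61 and 5.71 at 16 hpl, 6.53, 6.37 and 6.07 at 24 hpl, and 6.09, 5.93 and 6.04 at 36 hpl. Every array of lesioned fish lay below the unlesioned arrays, and the arrays of 16 hpl were the lowest group, apart from all others. The gene fell by 1.06 ± 0.19 at 8 hpl (adjusted p = 0.000821), was lowest at 16 hpl (-1.65 ± 0.19, adjusted p = 6.10e-06, 3.14-fold), and stood at -1.01 ± 0.19 at 24 hpl and -1.32 ± 0.19 at 36 hpl, both called. The step down from 8 to 16 hpl (-0.59, adjusted p = 0.0675) and the step up from 16 to 24 hpl (0.64, adjusted p = 0.194) did not pass the test. The second probe set followed with -0.84, -1.15, -0.77 and -0.996, all called, of which the values at 8, 24 and 36 hpl were not called with the hybridisation-control scaling (-0.54, -0.46 and -0.48).

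At 8 hpl the 12 probe sets split into 8 called lower, those of ccna2, cdc25b, ccnb1, cdkn1bb and ccng2, and 0 called higher in limma, with ccnd1's 2 probe sets higher at an unadjusted p under 0.05. Of all probe sets 14.5% were called lower at 8 hpl and 12% higher. At 16 hpl 3 were higher and 7 lower (18.4% and 21.9% of all probe sets), at 24 hpl 3 were higher and 4 lower (16.3% and 14.2%), and at 36 hpl 8 were higher and 4 lower (19.9% and 26.6%). Of the probe sets that the authors listed, 37.3%, 49.5%, 49.4% and 54% were called higher at the 4 times and 26.1%, 35.2%, 32.3% and 37.2% lower. All 12 passed the F test over the course, as did 46% of all probe sets and 97.2% of the authors' table. With the hybridisation-control scaling 9 passed, and both cdkn1bb probe sets (adjusted p = 0.0883 and 0.113) and the second ccng2 probe set (adjusted p = 0.0883) did not. The share of all probe sets that passed with that scaling is not given here.

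The listed Müller glia genes were in sum also lower at the times at which cdkn1bb and ccng2 were called lower. Whether their courses were alike was not tested. Every marker named here was listed for a 2-fold change at some time. Markers that stayed level are thus left out, and a change in the sums below was built in. Of 20 Müller glia markers 9 were named in the table, and their summed linear level ranged over 10937 to 12410.5 at 0 hpl, 6216.4 to 8074.0 at 8 hpl, 5863.4 to 6407.3 at 16 hpl, 4810.0 to 5151.9 at 24 hpl and 4058.1 to 5114.9 at 36 hpl. For rods and cones 13 of 46 markers were named, with sums of 1900.8 to 3428.2 at 0 hpl, 2643.2 to 4714.2 at 8 hpl, 1372.7 to 1563.2 at 16 hpl, 1019.3 to 1291.6 at 24 hpl and 904.1 to 1575.2 at 36 hpl. Of the markers of inner retinal neurons 7 of 33 were named, and their sums ran from 1000.4 to 1326.7 at 0 hpl, from 1142.8 to 2307.5 at 8 hpl, from 634.0 to 856.2 at 16 hpl, from 728.7 to 867.2 at 24 hpl and from 1250.7 to 1297.1 at 36 hpl. The pigment epithelium was represented by 1 of 16 markers (78.4 to 136.4 at 0 hpl, 39.9 to 130.0 at 8 hpl and 24.1 to 44.6 at 36 hpl), blood and endothelium by 3 of 25 (74.6 to 120.3, 89.5 to 152.3 and 41.1 to 73.9), and microglia and other leukocytes by 0 of 25. A cell type with few or 0 named markers may still have been present, since only changed genes were listed. The part of these cells in the changes of the 8 genes was not tested.

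The change from 16 to 36 hpl minus the change from 0 to 16 hpl was tested for each probe set. The later span is the longer one and the contrast was not scaled by time. A steady slope therefore also gives a value other than 0. The difference was positive and called for 8 of the 12 probe sets, against 7.37% of all probe sets and 20% of the authors' table, and it was called negative in limma for 0 of the 12, as at an unadjusted p under 0.05. It measured 3.27 ± 0.26 for ccna2, 3.1 ± 0.51 for ccnf, 3.08 ± 0.28 and 3.1 ± 0.32 for cdc25b, 2.87 ± 0.30 for ccnb1 and 1.5 ± 0.37 for skp2. For ccng2 it was 1.98 ± 0.33 and 1.31 ± 0.34, where the fall came before 16 hpl, and the latter was lost without replicate 2 of 16 hpl or with the hybridisation-control scaling (adjusted p of up to 0.0775). For ccnd1 it was 0.21 (95% interval -0.41 to 0.84) and 0.05 (95% interval -0.59 to 0.69), and for cdkn1bb 0.67 ± 0.30 (adjusted p = 0.138) and 1.22 ± 0.66 (adjusted p = 0.234), none of them called. The contrast does not see a course that levels off later. The brighter ccnd1 probe set gained 1.1 from 16 to 24 hpl and 0.14 from 24 to 36 hpl.

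The order of the genes was also tested within arrays, by subtracting the brighter ccnd1 value from every other probe set on the same array before the fit, which cancels any scale shared by an array. At 24 hpl the signed changes of skp2 (-1.39), ccnf (-1.38), ccna2 (-2.30), cdc25b (-2.38 and -2.35) and ccnb1 (-2.48) each lay below that of ccnd1. So did those of cdkn1bb (-3.19 and -3.78) and ccng2 (-3.14 and -2.90), which fell while ccnd1 rose. In all, 10 of 11 probe sets were called lower by this measure. Because ccnd1 itself rose, 96.6% of all probe sets and 83.5% of those listed by the authors were lower by this measure at 24 hpl, and that count does not single these genes out. From 24 to 36 hpl the relation turned, with 6 of 11 probe sets gaining on ccnd1 where 1.34% of all probe sets and 5.79% of the authors' table did: ccnf by 4.06 ± 0.28 (adjusted p = 3.29e-11), cdc25b by 2.18 and 2.43, ccna2 by 2.25, ccnb1 by 1.48 and skp2 by 1.47. The brighter ccnd1 probe set itself changed by 0.14 in that interval. This contrast thus nearly repeats the plain step, in which the same 6 were called, and adds no separate support for an order.

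By 36 hpl the differences from the ccnd1 change were 0.07 (95% interval -0.44 to 0.59) for skp2, -0.05 (95% interval -0.56 to 0.46) for ccna2, and -0.20 (95% interval -0.67 to 0.28) and 0.08 (95% interval -0.40 to 0.56) for cdc25b, none called. These intervals do not show equal changes, and those of skp2 and ccna2 start from a level not shown to be above background. The measured rise of ccnf, from such a level too, was larger than that of ccnd1 by 2.68 ± 0.28 (adjusted p = 3.05e-10), where 0.561% of all probe sets and 2.75% of those listed by the authors were called so. The change of ccnb1 was smaller than that of ccnd1 (-1.001 ± 0.26, adjusted p = 0.000518).

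**Figure D3:**
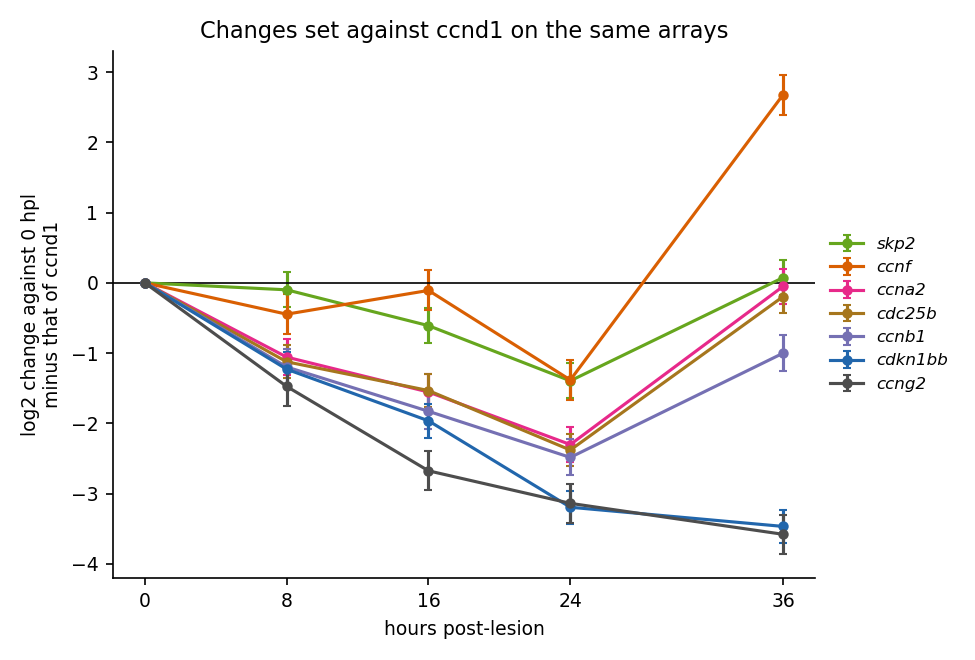
Log2 change against 0 hpl minus that of the brighter ccnd1 probe set on the same arrays (vertical axis) over hours post-lesion, for the probe set with the highest mean of each other gene, with bars of 1 SE from limma. The lines of skp2, ccna2, cdc25b and ccnb1 reach their lowest point at 24 hpl and come back towards 0 at 36 hpl, ccnf passes to 2.68, and cdkn1bb and ccng2 end at -3.47 and -3.58.

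The genes whose values ran closest to each of the 8 were picked by Pearson correlation over the 15 arrays. All points share the same 5 times, so that a high value describes a shared time course only. Only probe sets in the authors' table with 1 symbol, not a clone or locus name, were searched. Other probe sets on the array may have run closer. For ccnd1 the closest of those searched were orc6, atp2b1a and ybx1 (r of 0.98, 0.98 and 0.97). Of these orc6, a subunit of the complex that marks replication origins, changed by 0.36, 1.71, 3.88 and 3.83 at the 4 times. For skp2 they were selenoh, rrm1 and timp2a (0.95, 0.95 and 0.95), of which rrm1 is the large subunit of ribonucleotide reductase. For ccnf they were cdca8, cdc20 and rtkn2 (0.97, 0.97 and 0.97), and for ccna2 cdk1, dlc and plk1 (0.98, 0.98 and 0.98). Here cdca8 is a chromosomal passenger protein, cdc20 an activator of the APC/C ubiquitin ligase, plk1 a mitotic kinase, and dlc a ligand of Notch that changed by 1.22 at 36 hpl.

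For cdc25b the closest were rrm2, top2a and rtkn2 (0.98, 0.98 and 0.98) and for ccnb1 rrm2, kif23 and top2a (0.96, 0.96 and 0.95). The small ribonucleotide reductase subunit rrm2 shared their dip, with -1.37 at 8 hpl and -0.94 at 16 hpl, before 3.05 at 36 hpl. For cdkn1bb they were slc43a2b, ppap2d and gulp1a (0.94, 0.93 and 0.92) and for ccng2 scarb1, naxe and vsig10 (0.95, 0.94 and 0.93), none of them a cell cycle gene. Among the 8 genes themselves, ccna2 correlated with cdc25b at 0.98 and with ccnb1 at 0.95. The pair of ccnf and cdc25b gave 0.94, and that of skp2 and ccnf 0.92. The gene ccnd1 correlated with skp2, ccnf, ccna2, cdc25b and ccnb1 at 0.78, 0.71, 0.58, 0.58 and 0.48. After removal of the group means the pairs without ccnd1 gave 0.23, -0.02, 0.61 and -0.17. Those with ccnd1 then gave 0.38, 0.32, -0.14, 0.49 and -0.07. The closeness thus lay mainly between times and not between arrays of 1 time.

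The 8 genes were set beside other cell cycle genes from lists of known members, of which the authors' table names only part. Every named gene was listed for a 2-fold change, and the shares to read these counts against are those of the authors' table given above, of which 54% of probe sets were called higher at 36 hpl and 37.2% lower, where 19.9% and 26.6% of all probe sets were. In the G1 list, 5 of 27 genes were named, ccnd1 among them. At 16 hpl 2 of the 5 were called higher, at 24 hpl 3 and at 36 hpl 5, with a median of 1.67 at 36 hpl where the median of all named genes was 1.02. The cyclin E gene ccne1, which follows cyclin D at the G1 to S transition, stood at 0.59 at 8 hpl (not called) and was called higher by 0.66, 1.51 and 2.06 at the later times, and its step from 16 to 24 hpl was not called (0.85, adjusted p = 0.145). Its kinase partner cdk2 was called at 24 hpl (0.53) and 36 hpl (1.09), and e2f5 (1.67) and mybl2b (1.05) at 36 hpl only. The unlesioned means of cdk2 (2.76) and mybl2b (3.21) lay below 4.63. So did those of plk1 (3.48), cks1b (3.79), cdc20 (3.48) and gadd45bb (3.72), given below. The limit stated for skp2, ccnf and ccna2 thus also holds for the changes of these genes.

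In the list of S, G2 and M cyclins, Cdk1 and its activators, 11 of 21 were named, 4 of them from the 8 genes. At 8 hpl 6 were called lower, at 16 hpl 7 were lower and 2 higher, at 24 hpl 2 were lower and 1 higher, and at 36 hpl 9 were higher, with a median of 2.06. Between 24 and 36 hpl 10 of the 11 were called higher. With the hybridisation-control scaling the 6 calls at 8 hpl were lost, and 4 genes were called at 16 hpl, where the share of all probe sets so called is not given. The gene cdk1 followed the dip and rise of ccna2 (-0.51, -0.54, -0.11 and 2.97), and at 36 hpl plk1 was higher by 3.90 and the Cdk subunit gene cks1b by 2.09. The phosphatase regulator arpp19b was called higher from 16 hpl on (0.85, 0.87 and 1.44). The exceptions at 36 hpl were aurka (0.00) and foxm1 (0.58, adjusted p = 0.093), which were not called.

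Of 33 genes of the SCF and APC/C ubiquitin ligases 7 were named, skp2 and ccnf among them, and 7 of 7 were called higher at 36 hpl, against 54% of the authors' table, with a median of 1.51. The members differed in timing. The RING subunit gene rbx1 (0.07 at 8 hpl, not called, then 0.80, 1.04 and 1.30) and usp37, which in mammals removes ubiquitin from cyclin A (1.27, 1.35, 1.1 and 1.32), were higher before 24 hpl. The APC/C activator gene cdc20 (2.98) and the ubiquitin-conjugating enzyme gene ube2s (1.51) were called at 36 hpl only.

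Of 37 brakes 13 were named, and they did not move as a group, with 4 higher and 4 lower at 8 hpl, 6 and 4 at 16 hpl, 6 and 6 at 24 hpl and 7 and 6 at 36 hpl. The antiproliferative gene tob1a fell with cdkn1bb and ccng2 (-0.87, -1.27, -1.44 and -1.37). The growth arrest and damage genes gadd45bb (1.86, 2.59, 2.40 and 1.98) and gadd45ga (0.66, not called, then 1.64, 2.80 and 2.63) and the antiproliferative gene btg3 (1.28, 1.65, 1.77 and 1.85) rose. Of 30 cyclins and kinases outside the phase lists 2 were named, ccnk and ccnl1b, whose products serve transcription and splicing, and both were higher at all 4 times.

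None of the S phase genes is among the 8, and 16 of 24 listed were named. At 8 hpl 4 of them were called lower, at 16 hpl 2 were lower (tyms and rrm2) and 2 higher, at 24 hpl 11 were higher and at 36 hpl 16. By interval, 4 rose from 8 to 16 hpl, 7 from 16 to 24 hpl and 11 from 24 to 36 hpl. Against 0 hpl, the replication clamp gene pcna was at -0.27 and 0.09 at 8 and 16 hpl (not called), then at 1.32 and 2.71 at 24 and 36 hpl. At 36 hpl tyms was at 3.59, rrm1 at 2.91 and rrm2 at 3.05. At 24 hpl rrm1 was called higher than at 0 hpl (1.08). The genes tyms and rrm2 were not (0.35 and -0.08), but they came from lower values at 16 hpl (-0.61 and -0.94, with -0.06 for rrm1). Whether these genes differed in the start of their rise was not tested.

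**Figure D4:**
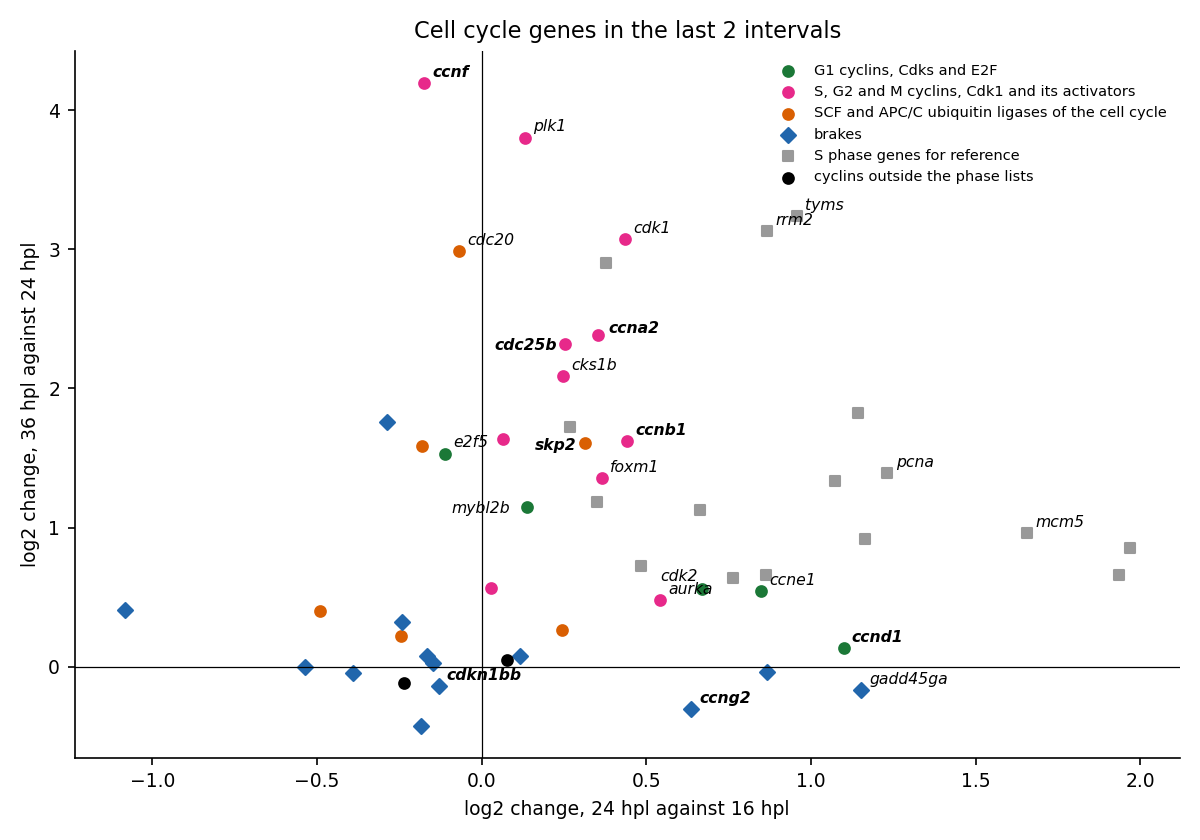
Log2 change from 16 to 24 hpl (horizontal axis) against that from 24 to 36 hpl (vertical axis) for the named genes of the 6 lists, 1 point a gene, with the 8 genes in bold and selected others labelled. The points share the 24 hpl arrays, so that the axes are not independent. The gene ccnd1 lies well to the right near 0 on the vertical axis, ccnf, ccna2, cdc25b, ccnb1 and skp2 lie high and to its left, pcna and some other S phase genes lie further right than ccnd1 and above it, and cdkn1bb lies near the origin.

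The authors' deposited table gives its own fold changes and p-values for these probe sets, from a test that the labels do not name. Its fold changes equal the differences of the group means within 6.93e-10 on the log2 scale. In the authors' deposited table ccnd1 had p = 0.0204 and 0.0226 at 24 hpl and p = 0.0363 and 0.0264 at 36 hpl for its 2 probe sets, and at 36 hpl ccnf had p = 0.0338, ccna2 p = 0.0436 and the brighter cdc25b probe set p = 0.0482. For the others the smallest p in the authors' deposited table was 0.0545 for the second cdc25b probe set and 0.0811 for skp2, both at 36 hpl. By the same test it was 0.146 for the brighter ccng2 probe set and 0.902 for the second, both at 16 hpl. For cdkn1bb it was 0.621 for the brighter probe set at 36 hpl and 0.793 for the second at 24 hpl. For ccnb1 it was 0.687 at 36 hpl. At the earlier times the authors' deposited table gave p = 0.994 and 0.437 for ccnd1 at 16 hpl, and the 16 hpl rise of ccnf and the dips of ccna2, cdc25b and ccnb1 at 8 and 16 hpl had a p listed as 1.0. The calls of skp2, ccnb1, cdkn1bb, ccng2 and the second cdc25b probe set, and every call at 8 and 16 hpl, therefore rest on limma alone. The authors' test, whose smallest p-values are headed FDRCI, may not ask the same question as limma. Its p-values and those of limma are thus not shown to be like measures.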

How the data were processed

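Expression was measured on Affymetrix zebrafish arrays in 15 samples, 3 for each of 5 times. The deposited series table holds log2 values normalised with RMA, per the submitters' processing notes. The authors' deposited table adds signed fold changes, a score below 0 where expression fell, and p-values, from a test that is not given in the labels.

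Of 15617 probe sets, 115 were Affymetrix controls and did not enter the fit, and dim ones were kept. The other 15502 were fitted over all 15 arrays with 1 coefficient per time, using lmFit and eBayes of limma 3.58.1 under R 4.3.3, and p-values were Benjamini-Hochberg adjusted over all of them. The fit was tested on simulated data. Symbols came from the authors' table, updated through a RefSeq gene table: of 3164 probe sets 2511 had 1 symbol, 108 several and 545 none. All probe sets of the 8 genes are named, together with the 3 most alike genes of each and up to 4 genes of each pathway list by smallest adjusted p at 36 hpl. A few further genes (aurka, foxm1, ccnk, ccnl1b) were named after their values were seen. The genes and lists were chosen with earlier results of these data known. The arrays give no read depth, and their number limits the precision. Alternatives changed the normalisation, the filter, the variance model, array weights, the samples fitted, the threshold, the replicate block, or left out 1 array. No sequence or coordinate is given, since no table of them was used here.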

Additional observations from a re-analysis of the deposited data

How the results depend on the processing

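Of 1104 alternative values for the log2 changes of the 12 probe sets against 0 hpl, 1041 kept both direction and call, 38 lost the call, 15 gained it and 10 changed sign, all of these last not called in the first place. The sign changes were in ccnf at 8 hpl, which became 0.0637 with quantile normalisation applied again, 0.0945 with median centring and 0.26 with the hybridisation-control scaling and ran from -0.47 to 0.34 as each array was left out, and under the hybridisation-control scaling in ccna2 at 24 hpl (0.13), in cdc25b at 24 hpl (0.0559 and 0.0873) and in the second cdc25b probe set at 16 hpl (0.0043). The hybridisation-control scaling cut the count of called probe sets from 8 to 3 at 8 hpl, from 10 to 6 at 16 hpl, from 2 to 1 between 8 and 16 hpl and from 2 to 1 between 16 and 24 hpl. Shares of all probe sets called with this and the other alternatives are not given here. A lower count is thus not shown to be particular to these genes. A 2-fold minimum left 2 at 8 hpl, 5 at 16 hpl and 0 between 8 and 16 hpl, and an adjusted p under 0.01 left 6 at 16 hpl and 0 between 8 and 16 hpl, where limma had called 2 at an adjusted p under 0.05. In that interval quantile normalisation applied again and median centring each left 1, and array weights gave 4. Without any 1 array, between 1 and 3 probe sets were called from 8 to 16 hpl and between 1 and 2 from 16 to 24 hpl. The count from 24 to 36 hpl was 6 in every alternative run, and that at 36 hpl against 0 hpl lay between 10 and 12.

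No pairing of samples by replicate number was evident: over 30 pairs of groups' same-numbered arrays the median correlation of deviations was -0.04 (-0.34 to 0.40), and 9 pairs exceeded 0.1. These values cannot show that same-numbered samples were unrelated. With the replicate number as a block, the counts were 8, 10, 7 and 12 at 8, 16, 24 and 36 hpl, 2, 2 and 6 in the later intervals, 8 for the change after 16 hpl minus that before and 12 for the F test, as without it.

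With 3 arrays a group and no detection calls, small changes of dim probe sets such as skp2 and ccna2 at 8 to 24 hpl are the least certain. A gene that the authors' table does not name was not analysed here, so that a list's count covers its named part only.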
